A study of Mus musculus with 12 samples.

Results

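The 10 genes described here are members of the BCL2 family, the proteins that decide whether the outer membrane of the mitochondrion stays closed or is opened in apoptosis. They were chosen by name as Bcl2, Bcl2l1, Mcl1, Bax, Bak1, Bcl2l11, Bbc3, Pmaip1, Bid and Bad. Each symbol matched 1 row of the count table, so the set is 10 of the 13780 genes listed, and all 10 passed the filter on low counts. The genes were read in CD8+ T cells, the cytotoxic lymphocytes, before activation, after activation in plain media and after activation with sodium lactate.

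The family falls into 3 roles. Survival members (Bcl2, Bcl2l1, which encodes BCL-XL, and Mcl1) hold the others in check, the pore formers (Bax and Bak1) open the membrane when released, and the BH3-only members (Bcl2l11 or BIM, Bbc3 or PUMA, Pmaip1 or NOXA, Bid and Bad) sense stress and bind the survival members or activate the pore formers. In T cells, BIM is known for removing cells when antigen and cytokine are withdrawn, BCL2 is the survival protein that IL-7 maintains in resting cells, and BCL-XL is induced by stimulation through the antigen receptor and CD28. MCL1 is a protein of short half-life that NOXA binds and helps to remove. These roles are background, and transcripts alone were measured here.

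The cells came from spleens of wild type C57BL/6J mice aged 8 to 12 weeks and were purified by positive magnetic selection for CD8. Naïve cells were frozen directly after purification, without beads, cytokine or lactate. Both activated groups were cultured with beads against CD3 and CD28 and 10 U/ml human IL-2 for 72 h, either in plain media (media group) or in media with 40 mM sodium lactate (lactate group), so IL-2 was shared by the 2 activated groups and absent from the naïve one. The control of the lactate group was plain media and not sodium chloride, so sodium and osmolarity cannot be told apart from lactate in these libraries. Each group held 4 libraries. The column labels of the naïve libraries name no mouse, so whether they share mice with the activated libraries cannot be read from them. The labels tie both activated conditions to the same mouse for 3 donors, while 2 further mice are present in 1 activated group only. Replicate numbers are those of the sample titles and do not all follow the donors.

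Total counts per library ran from 14726904 to 21478137, and a member gene was covered by 147 to 13743 counts in a library. Levels are given in CPM, the count of a gene relative to the TMM-scaled total of its library, and 13767 genes were tested in edgeR's quasi-likelihood model with a term for each group. A gene is called higher or lower at a Benjamini-Hochberg adjusted p of at most 0.01, the limit that the study's methods use. The running numbers of the libraries form 2 blocks, called the low and the high run here, and the second holds naïve replicate 4, media replicate 4 and lactate replicates 3 and 4. Cd3d, Cd3e, Cd8a and Cd8b1, which define the labelled cells, summed to 1365 to 3112 CPM in naïve and 1779 to 2813 CPM in activated libraries, and Cd4 was at 27.1 CPM or less. The naïve libraries carried RNA of other spleen cells. Sums were 352 to 865 CPM over 4 B cell markers and 458 to 1506 CPM over 5 myeloid markers. In any activated library these were at most 13.2 and 18.7 CPM. Over 4 red cell markers the sums were 933, 3369, 378 and 84.1 CPM in naïve replicates 1 to 4, against at most 1.90 CPM in any activated library. Naïve replicate 4 stood apart from the other naïve libraries, with 34.6 CPM of Fos against 2388 to 2713 CPM, 4.82 CPM of Hspa1a against 1618 to 2461 CPM and 388 CPM of Cd8a against 849 to 1208 CPM (genes named after their values were seen). The part of these differences in the results with naïve cells was not tested, and values without naïve replicate 4 are given where it matters. In bulk RNA, fewer cells that express a gene and less of its RNA per cell cannot be told apart.

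Between lactate and media, Bcl2l1, Bax and Bid were higher and Bcl2l11 and Bbc3 were lower, while Bcl2, Mcl1, Bak1, Pmaip1 and Bad did not pass the test. Of all genes tested, 13.9% were called higher, 11.1% lower and 25.1% either way, against 50% of the 10 members. The members were chosen with earlier results of these data known, so their share is a description. The samples of the 2 groups did not overlap for 5 members, or 50%, against 44.7% of all genes. The median log2 fold change of the members was 0.06, against -0.0016 over all genes. With the donor as a block, fitted to the 8 activated libraries, 27.4% of all genes were called, and the same 5 members were called in the same directions. Media replicate 2 and lactate replicate 3 have no partner from the same mouse and add nothing to this contrast. The differences of the donor block thus rest on the 3 donors with both libraries. Its standard errors also draw on the spread of all genes, which the model shares between genes.

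**Figure D1:**
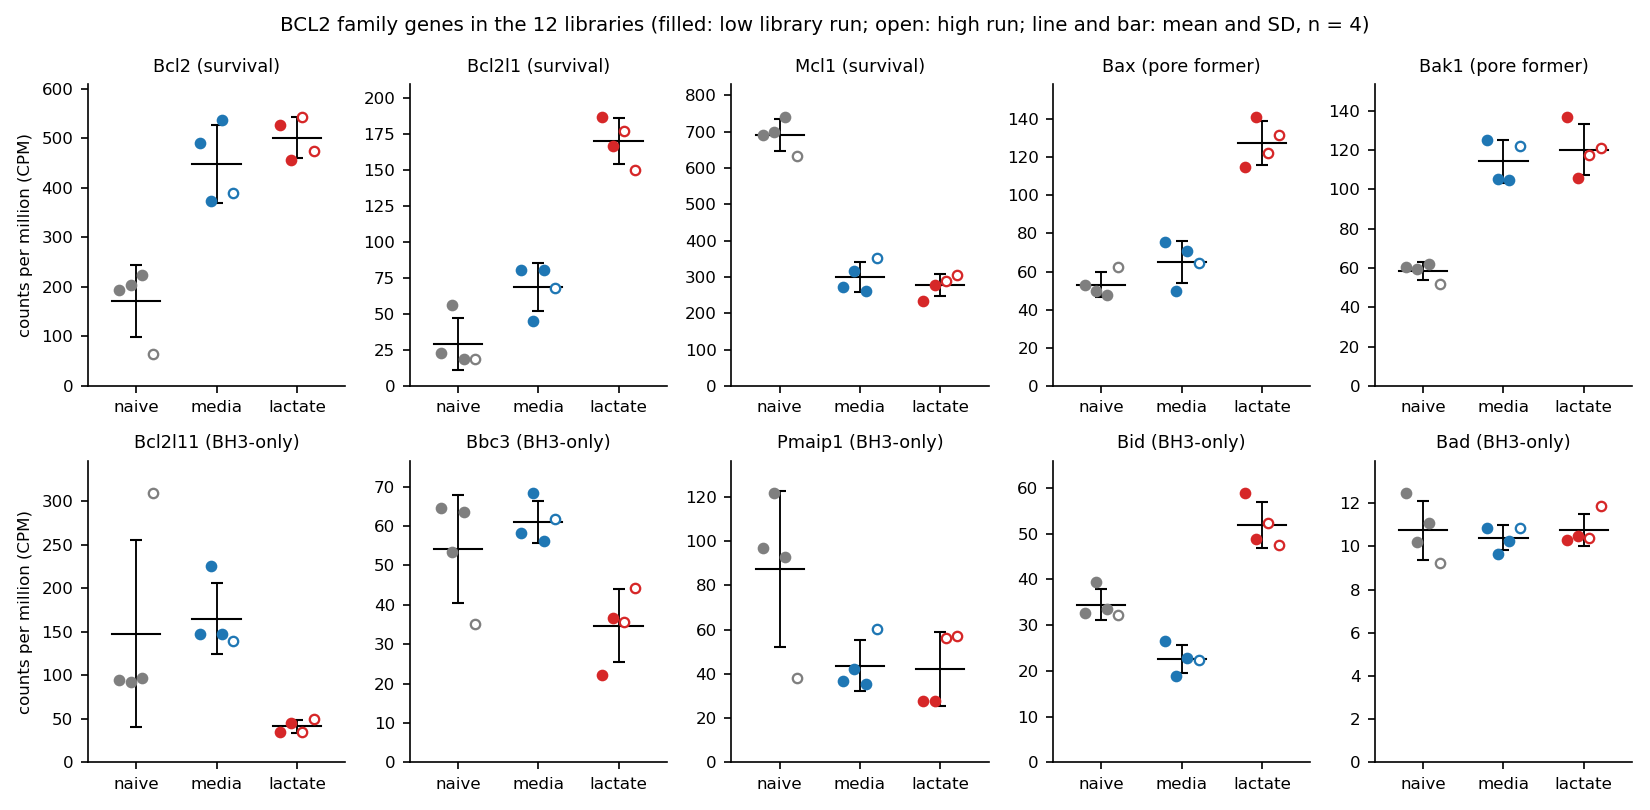
Level of each BCL2 family gene in CPM (vertical axis, from 0, a scale of its own for each gene) in the naïve, media and lactate libraries. Each point is a library, filled for the low run and open for the high run, and lines and bars give the mean and SD of 4. For Bcl2l1, Bax and Bid all 4 lactate points lie above all 4 media points, for Bcl2l11 and Bbc3 all lie below, and naïve replicate 4 is at 309 CPM for Bcl2l11, against 92.2 to 96.4 CPM in the other naïve libraries.

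Among the survival members, Bcl2l1 was the one that passed the test between lactate and media. Bcl2l1, at chr2:152780668-152831728 on the minus strand (GRCm38), had 80.5, 45.0, 80.2 and 67.9 CPM in media replicates 1 to 4, and 187, 167, 177 and 149.7 CPM in lactate replicates 1 to 4. Every lactate library was above every media library, by more than the spread within either group. The fitted increase was 2.48-fold (log2 fold change 1.31, SE 0.32, adjusted p = 0.00636). Within the 3 donors with both libraries, the log2 differences in CPM were 1.21, 1.05 and 1.14, and by run they were 1.41 in the low and 1.26 in the high run, where the media group has 1 library. With the donor block, which rests on the same 3 donors, the log2 fold change was 1.15 (SE 0.09, adjusted p = 0.000147). The call was lost, with the direction kept, when any 1 of the 8 activated libraries was left out (adjusted p of 0.0119 to 0.0242). It was also lost with the title number as a block (adjusted p = 0.0131). With the 2 compared groups alone (adjusted p = 0.000215), without naïve replicate 2 (0.000278) and in DESeq2 (0.000402), the call was kept.

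Bcl2, the founding survival gene, at chr1:106538178-106714274 on the minus strand, had 490.3, 373, 537 and 391 CPM in media and 528, 457, 544 and 476 CPM with lactate. The 2 groups overlapped, and the log2 fold change of 0.16 (SE 0.29) had a 95% interval from -0.46 to 0.79. The 3 donors gave log2 differences of 0.11, -0.23 and 0.28 for Bcl2, so they did not share a direction. Mcl1, at chr3:95658788-95663176 on the plus strand, had 272, 315, 262 and 352 CPM in media and 234, 278, 289 and 306 CPM with lactate. Its groups overlapped as well, with a log2 fold change of -0.12 (SE 0.11, 95% interval -0.36 to 0.13). For neither gene did the test pass (adjusted p of 0.695 for Bcl2 and 0.449 for Mcl1), and the interval for Bcl2 was the wider one. The spread behind these intervals was fitted over all libraries, so it takes in the naïve ones. Bcl2 was at 64.2 CPM in naïve replicate 4, far below the other naïve libraries. Without naïve replicate 4 its adjusted p was 0.288, and with the 2 compared groups alone it was 0.293. The call stayed the same in both fits.

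Of the pore formers, Bax passed the test and Bak1 did not. Bax, at chr7:45461697-45466898 on the minus strand, had 75.5, 49.6, 70.7 and 64.3 CPM in media and 115, 141, 122 and 132 CPM with lactate. The lowest lactate library was well above the highest media library, and the fitted rise was 1.96-fold (log2 fold change 0.97, SE 0.13, adjusted p = 0.000208). Differences within donors were 0.60, 1.00 and 1.03 on the log2 scale, and those within the runs were 0.99 and 0.98. Of the exon bases of Bax, 12.2% also belong to Gm45808, which is annotated on the same strand and has no row in the table.

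Bak1, at chr17:27019810-27029009 on the minus strand, had 125, 105, 105 and 122 CPM in media and 137, 106, 117 and 121 CPM with lactate. The libraries of the 2 groups were intermixed, the log2 fold change was 0.07 (SE 0.10, adjusted p = 0.61), and the 95% interval from -0.15 to 0.29 leaves no room for a 1.96-fold change. Whether the responses of Bax and Bak1 differ was not tested as such, but their intervals, 0.68 to 1.26 for Bax, do not meet.

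By log2 fold change, the largest difference of the family between lactate and media was in a BH3-only gene. Bcl2l11, at chr2:128126038-128162547 on the plus strand, had 147, 226, 147 and 139.9 CPM in media, and 34.4, 45.5, 35.4 and 49.9 CPM with lactate. The highest lactate library was far below the lowest media library. The fitted level was 3.99-fold lower (log2 fold change -2.0, SE 0.37, adjusted p = 0.00134), with -2.09, -1.69 and -1.49 within the 3 donors. The log2 difference was -2.10 in the low and -1.73 in the high run, and over 21 alternative settings the fitted value stayed between -2.16 and -1.74, with the call kept in each.

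Bbc3, at chr7:16308393-16318205 on the plus strand, had 58.3, 68.3, 56.1 and 61.7 CPM in media and 22.2, 36.7, 35.7 and 44.4 CPM with lactate. Lactate libraries were all below media libraries, with the lowest value in lactate replicate 1, and the fitted level was 1.76-fold lower (log2 fold change -0.81, SE 0.21, adjusted p = 0.00965). Within donors the differences were -1.39, -0.61 and -0.47, and within the runs they were -1.08 and -0.63. The value lies close to the limit: with the donor block the adjusted p was 0.00555, and in 12 of 21 alternatives at the same limit the call was lost, at adjusted p of up to 0.0318, among them a term for the run and leaving out any 1 activated library other than lactate replicate 4.

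Bid, whose protein is cut by caspases and granzyme B to reach the mitochondrion, lies at chr6:120891930-120916853 on the minus strand. It had 26.5, 18.9, 22.8 and 22.3 CPM in media and 58.8, 48.7, 52.3 and 47.6 CPM with lactate, again without overlap. The rise was 2.29-fold (log2 fold change 1.20, SE 0.12, adjusted p = 5.95e-05), and the 3 donors gave nearly the same log2 difference, 1.15, 1.09 and 1.09. Of its exon bases, 17.7% overlap Bcl2l13 on the opposite strand, and Bcl2l13, with 83.5 CPM in media and 90.0 CPM with lactate, did not pass the test (log2 fold change 0.11, adjusted p = 0.548).

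Pmaip1, at chr18:66458533-66465565 on the plus strand, had 36.6, 42.3, 35.3 and 60.4 CPM in media and 27.7, 27.9, 56.2 and 57.1 CPM with lactate. The libraries separated by run: the 5 activated libraries of the low run were at 27.7 to 42.3 CPM and the 3 of the high run at 56.2 to 60.4 CPM. The log2 fold change of -0.05 had a 95% interval of -0.79 to 0.70, so no direction was detectable in this fit. That interval takes in the spread of the naïve libraries as well. With the donor block, the log2 fold change was -0.26 (SE 0.10, adjusted p = 0.0756), and the 3 donors gave -0.40, -0.34 and -0.08.

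Bad, a BH3-only gene whose protein is held inactive by phosphorylation, lies at chr19:6941861-6951899 on the plus strand and was the least abundant member. It had 9.66 to 10.9 CPM in media and 10.3 to 11.9 CPM with lactate, and the log2 fold change was 0.05 (SE 0.13, 95% interval -0.24 to 0.33, adjusted p = 0.806). Of its exon bases, 20.5% overlap Gpr137 on the opposite strand. Whether reads were counted by strand is not given in the sources used here, so counts of Bad, Bid, Bak1 (25.5% of exon bases shared with Ggnbp1) and Bcl2 (6.09% shared with D630008O14Rik) may hold reads of these neighbours.

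**Figure D2:**
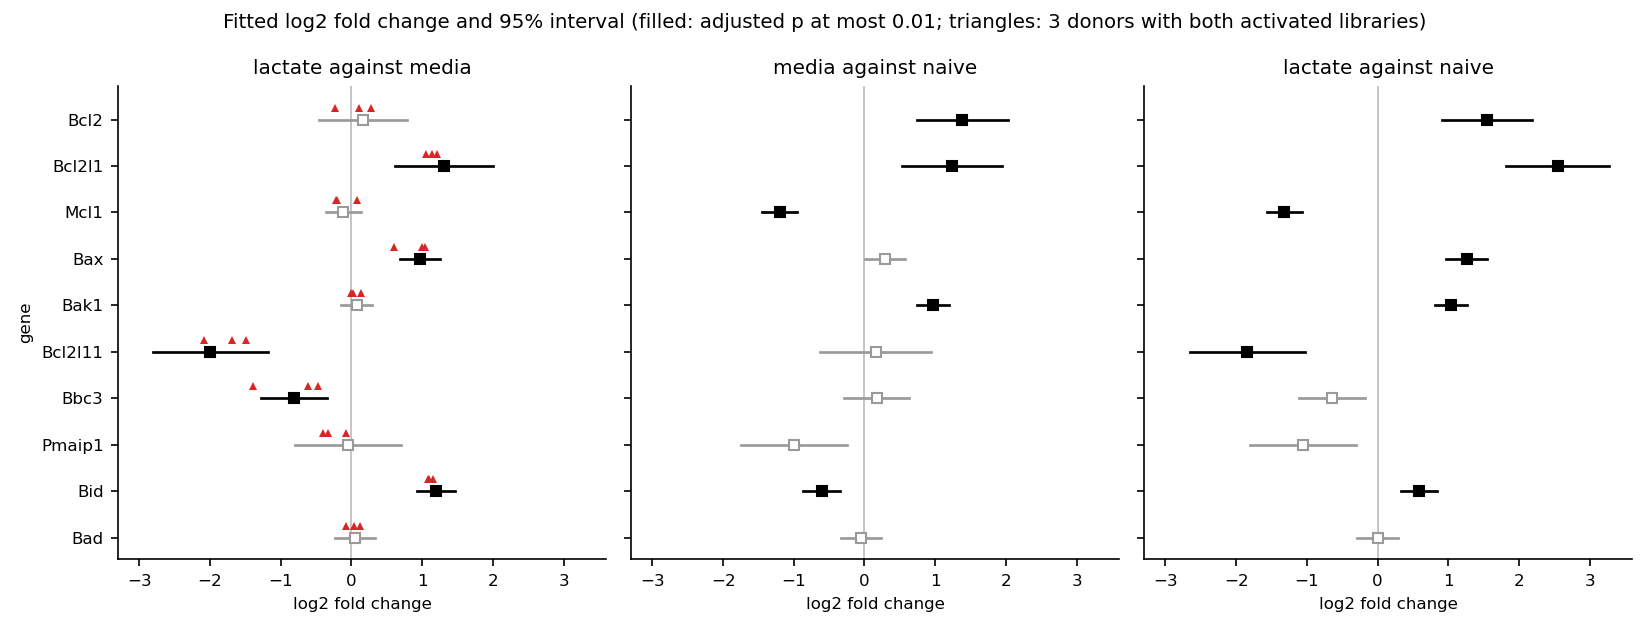
Fitted log2 fold change of each BCL2 family gene (horizontal axis) with its 95% interval in the 3 comparisons, filled where the adjusted p was at most 0.01, and, in the first panel, the log2 differences of the 3 donors as triangles. For lactate against media, Bcl2l11 is at -2.0 and Bcl2l1, Bax and Bid lie near 1, and for media against naïve Mcl1 and Bid are called lower.

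The start regions of the members were searched for 4 short motifs. FOXO factors are textbook activators of Bcl2l11 and Bbc3, the 2 members that were lower with lactate. The search was thus prompted by these members, and its matches do not test a part of FOXO factors. Windows of 300 bases, from 250 before to 50 after a start site, were taken from RefSeq (GRCm38.p6) and were found for 9 of the 10 members, all but Pmaip1, in 15 windows. The FOXO letters GTAAACA, on either strand, were present in 2 of the 15 windows, belonging to Bcl2l11 and Bbc3. They were present in 3.65% of the 32851 promoter windows of the table. Bcl2l11 and Bbc3 had several windows each, and some of those of Bbc3 overlap, so a share of windows is not a share of genes. The E-box letters CACGTG were also present in 2 of the 15 windows, that of Bax and another of Bbc3, and in 7.15% of all windows. The letters TTCNNNGAA (STAT, 8.3% of all windows) and TGANTCA (AP-1, 7.81%) were in no window of a member. None of these patterns overlapped another in the members. The stretches of 60 bases upstream of the start that hold the FOXO letters, and the one of Bax that ends at the start site, are shown with the letters in capitals, each read 5′ to 3′ along the strand of its gene.
Bcl2l11, chr2:128125788-128125847, plus strand: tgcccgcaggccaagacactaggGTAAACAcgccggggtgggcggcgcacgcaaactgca
Bbc3, chr7:16310064-16310123, plus strand: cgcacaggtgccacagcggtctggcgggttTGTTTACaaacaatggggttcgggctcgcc
Bax, chr7:45466899-45466958, minus strand: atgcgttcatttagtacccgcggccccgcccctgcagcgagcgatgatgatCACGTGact
In Bcl2l11 the letters begin 227 bases before the start and read forward. In Bbc3 they begin 167 bases before a RefSeq start and read on the opposite strand. That start lies inside the gene, 1868 bases downstream of its annotated first base. In Bax the E-box shown begins 9 bases before the start, and a second E-box of the same window, at offset 35 after the start, lies outside the stretch shown. A match of letters is a description and not a bound site, and the windows without a match say nothing of the factor. Of the genes of these factors, Foxo3 was at 173, 196, 183 and 127 CPM in media. Its lactate libraries held 99.3, 118, 86.0 and 86.0 CPM (log2 fold change -0.80, SE 0.14, adjusted p = 0.000835), and its part in the levels of Bcl2l11 and Bbc3 was not tested.

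The make-up of the family was compared between genes in TPM, a share over the genes of the table after division by gene length. That length takes in all annotated exons of a gene and not the transcript expressed. The orders, sums, shares and ratios between genes given below depend on it. In media, Mcl1 had the highest level, with 304 ± 33.0 TPM (SD, n = 4), followed by Bcl2 (169.95 ± 33.3 TPM), Bak1 (164 ± 15.0 TPM) and Bax (143 ± 26.4 TPM), which overlapped one another. Bbc3, Bcl2l11, Pmaip1 and Bcl2l1 followed at 51.8 to 99.7 TPM, each overlapping the next in order. Bid (22.1 ± 3.32 TPM) and Bad (14.1 ± 0.758 TPM) lay below all others without overlap.

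With lactate the order was another one. Bax (255 ± 24.5 TPM) and Mcl1 (255 ± 19.7 TPM) shared the first place, and Bcl2 (173 ± 15.5 TPM) and Bak1 (158 ± 20.9 TPM) overlapped below them. Bcl2l1 reached 117 ± 14.5 TPM and stood apart from its neighbours on both sides. Bbc3, Pmaip1 and Bid overlapped at 46.2 to 51.3 TPM, and Bcl2l11 (16.2 ± 2.83 TPM) was next to last, overlapping Bad (13.3 ± 0.743 TPM).

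The 3 survival members summed to 526 ± 17.3 TPM in media and 545 ± 10.5 TPM with lactate, while Bcl2l1 made up 9.79% ± 2.24 of that sum in media and 21.5% ± 2.32 with lactate. The 2 pore formers summed to 308 ± 37.3 TPM in media and 413 ± 23.0 TPM with lactate, with no overlap of the libraries. The 5 BH3-only members summed to 262 ± 24.9 TPM in media and 175 ± 22.0 TPM with lactate, again with no overlap. Within the BH3-only sum, the share of Bcl2l11 was 27.0% ± 4.60 in media and 9.30% ± 1.57 with lactate, and that of Bid was 8.55% ± 1.84 and 27.0% ± 6.86. The sums follow from the genes already tested and carry no test of their own.

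**Figure D3:**
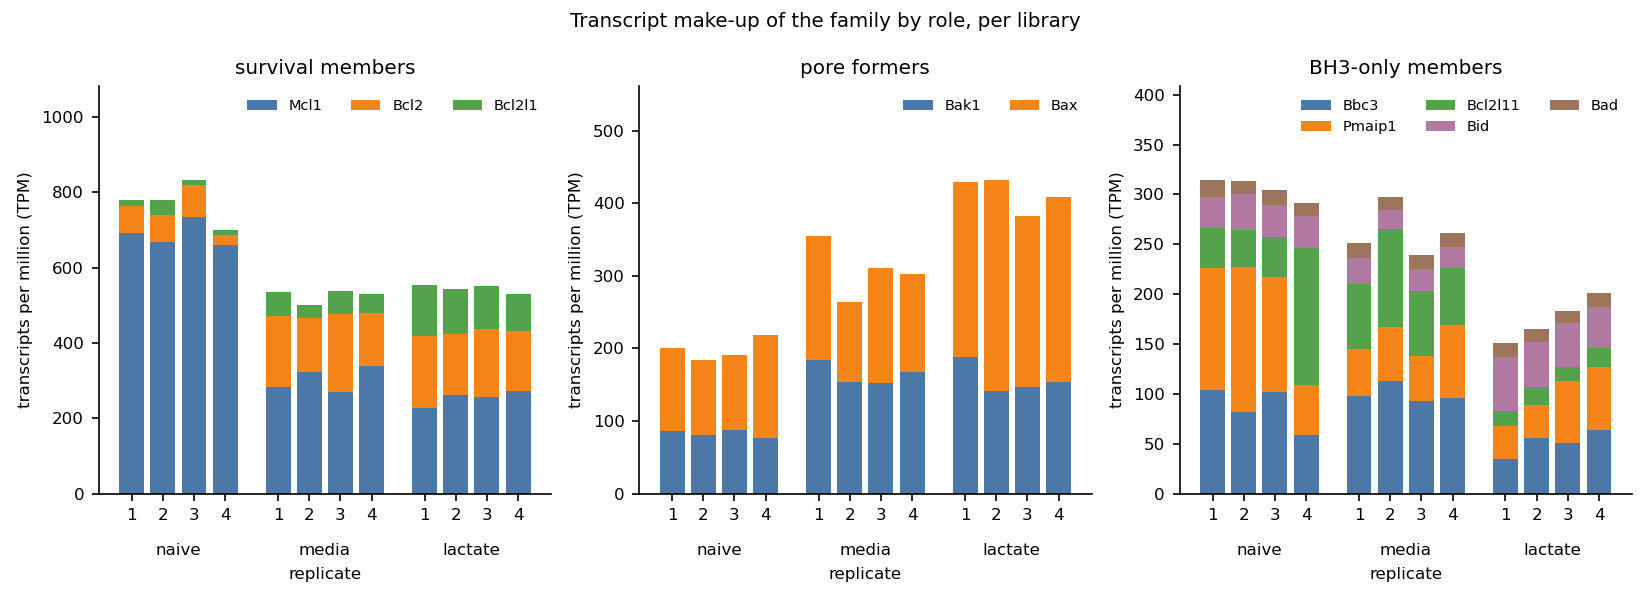
TPM (vertical axis, from 0) of the survival members, the pore formers and the BH3-only members, stacked for each of the 12 libraries. From media to lactate the survival bars keep a like height (526 and 545 TPM on average) with a thicker Bcl2l1 part, the Bax part grows and the BH3-only bars shrink from 262 to 175 TPM.

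Ratios of members within a library do not depend on library scaling, and 4 pairs were compared over the 3 pairs of groups, 12 tests in all. The ratio of Bcl2 to Bcl2l11 was 2.92, 1.45, 3.20 and 2.45 in media and 13.4, 8.81, 13.5 and 8.36 with lactate. The geometric means were 2.40 and 10.7, and no library of one group reached the other (two-sided exact permutation test, p = 0.0286, the smallest that 4 against 4 allows, 0.0571 after Benjamini-Hochberg adjustment over the 12 tests). The ratio of Bcl2l1 to Bcl2 was 0.241 to 0.347 in media and 0.629 to 0.728 with lactate, and that of Bax to Bcl2 was 0.764 to 0.957 and 1.26 to 1.79, both without overlap and with the same exact permutation p = 0.0286 (adjusted 0.0571). None of the 12 adjusted values was under 0.05. The ratio of Mcl1 to Pmaip1, a survival protein and the BH3-only protein that binds it, was 4.66 to 5.96 in media and 4.11 to 7.96 with lactate (exact permutation p = 1). Its lactate libraries separated by run, at 6.76 and 7.96 in the low and 4.11 and 4.29 in the high run.

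**Figure D4:**
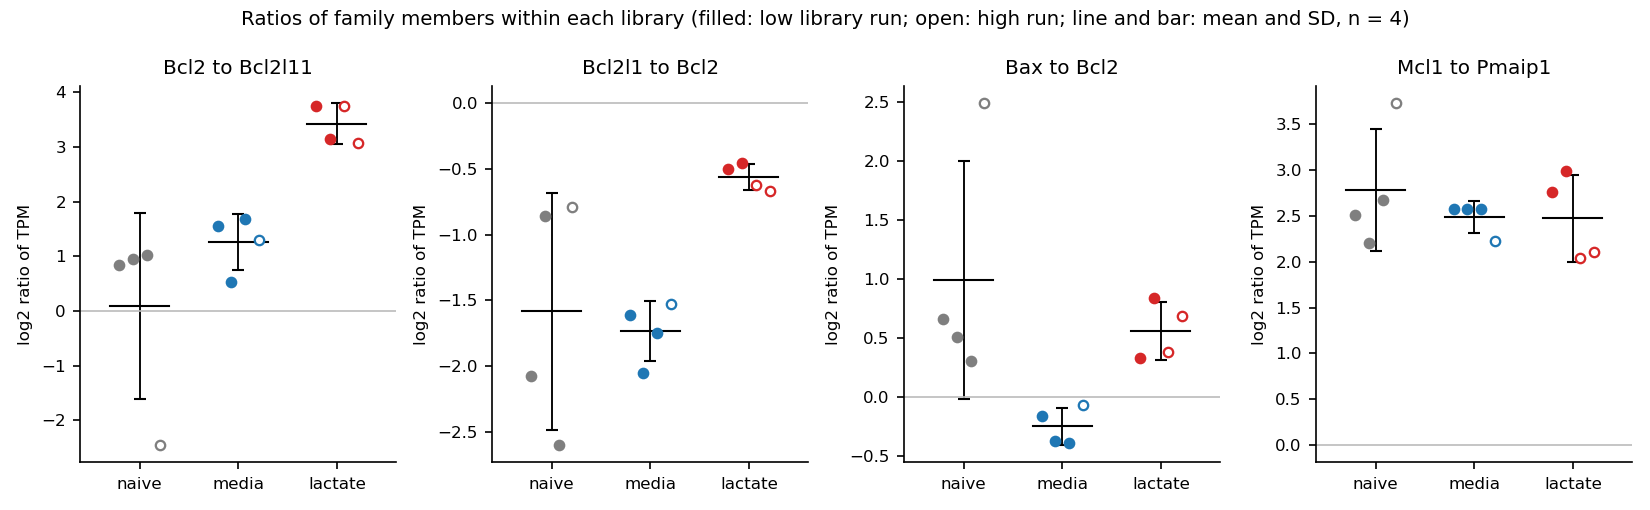
Log2 ratio of TPM for 4 pairs of BCL2 family genes (vertical axis) in the naïve, media and lactate libraries, with the mean and SD of 4, filled for the low and open for the high run. The lactate points lie above all media points for Bcl2 to Bcl2l11, Bcl2l1 to Bcl2 and Bax to Bcl2, and overlap them for Mcl1 to Pmaip1, and naïve replicate 4 lies apart from the other naïve libraries in 3 of the panels.

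The comparison of naïve with activated cells takes in activation together with IL-2, 72 h of culture and any difference between the mice. In media, Bcl2, Bcl2l1 and Bak1 were higher than in naïve cells and Mcl1 and Bid were lower, 5 of 10 members (50%). Over all genes, 28.5% were called higher, 29.0% lower and 57.5% either way. With lactate, 7 of 10 members (70%) were called against naïve cells, with Bcl2, Bcl2l1, Bax, Bak1 and Bid higher and Mcl1 and Bcl2l11 lower, and over all genes 33.0% were higher, 32.0% lower and 65.0% either way. These 2 comparisons share the naïve libraries, and each shares its activated libraries with the comparison of lactate and media, so they are not independent. All values against naïve cells stand beside the RNA of other spleen cells given above.

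Mcl1 was the family's dominant transcript before activation. Naïve libraries held 689, 700, 740.5 and 634 CPM, all above the 234 to 352 CPM of the 8 activated libraries. The fall was 2.30-fold in media (log2 fold change -1.20, SE 0.12, adjusted p = 1.65e-06) and 2.49-fold with lactate (log2 fold change -1.32, SE 0.12, adjusted p = 5.47e-07), and it was present in both runs, at -1.33 and -0.85 in media. On the TPM scale Mcl1 made up 89.2% ± 3.70 of the survival sum in naïve cells, 58.0% ± 7.53 in media and 46.9% ± 4.39 with lactate, and the sum itself was 774 ± 54.3 TPM in naïve cells.

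Bcl2 had 193, 203, 225 and 64.2 CPM in naïve replicates 1 to 4, so all naïve libraries lay below all activated ones, and replicate 4 lay far below the others. The rise was 2.61-fold in media (log2 fold change 1.39, SE 0.29, adjusted p = 0.00105) and 2.92-fold with lactate (1.55, SE 0.30, adjusted p = 0.000403). Without naïve replicate 4 the log2 fold changes were 1.11 and 1.27, and the calls were kept. Bcl2l1 had 22.9, 56.2, 18.5 and 18.5 CPM in naïve libraries. Its rise with lactate was 5.86-fold (log2 fold change 2.55, SE 0.34, adjusted p = 1.81e-05) without overlap of the libraries. In media it was 2.36-fold (1.24, SE 0.32, adjusted p = 0.0044), but naïve replicate 2 lay above media replicate 2, and leaving out any 1 of 6 libraries, or fitting the 2 groups alone, lost the call (adjusted p of 0.0112 to 0.0197). Without naïve replicate 2 the log2 fold change in media was 1.71.

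Bak1 had 60.6, 59.5, 62.1 and 52.0 CPM in naïve cells and rose 1.95-fold in media (log2 fold change 0.96, SE 0.10, adjusted p = 4.16e-06) and 2.05-fold with lactate (1.04, SE 0.10, adjusted p = 1.62e-06). Bax had 52.7, 49.9, 47.9 and 62.2 CPM in naïve cells, which overlapped the media libraries (log2 fold change 0.29, SE 0.13, adjusted p = 0.069). Without media replicate 2, the lowest of that group, the change of Bax in media passed the test (0.40, adjusted p = 0.0084). With lactate Bax was 2.40-fold higher than in naïve cells (log2 fold change 1.26, SE 0.13, adjusted p = 2.8e-06). Against naïve cells, Bak1 was thus called in both activated groups and Bax in the lactate group alone.

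Bid moved in opposite directions from naïve cells. It had 32.7, 39.5, 33.6 and 32.2 CPM in naïve libraries, above all media and below all lactate libraries. It was 1.52-fold lower in media (log2 fold change -0.61, SE 0.12, adjusted p = 0.000659) and 1.5-fold higher with lactate (0.59, SE 0.12, adjusted p = 0.000678). Both directions were present in each run, at -0.64 and -0.53 in media and at 0.61 and 0.63 with lactate.

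For Bcl2l11, the reading against naïve cells rests on 1 library. Naïve replicates 1 to 3 held 94.4, 92.2 and 96.4 CPM, and replicate 4 held 309 CPM, above every other library of the study. With all 4, the log2 fold change in media was 0.16 (SE 0.36, adjusted p = 0.717), and without replicate 4 it was 0.81 (adjusted p = 0.00141). The difference in media was 0.85 within the low run and -1.14 within the high run, each from mean log2 CPM, and the second rests on 1 library a group. With lactate, Bcl2l11 was 3.58-fold lower than in naïve cells (log2 fold change -1.84, SE 0.37, adjusted p = 0.000625), and without replicate 4 the log2 fold change was -1.19 (adjusted p = 5.46e-05).

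The calls of Pmaip1 and Bbc3 against naïve cells also depended on the setting, including whether naïve replicate 4 was kept. Of 20 alternatives, the call changed in 2 for Pmaip1 in media, 6 for Pmaip1 with lactate and 4 for Bbc3 with lactate. In DESeq2, with all libraries, these 3 passed (adjusted p of 0.00355, 0.00143 and 0.00164). Pmaip1 had 96.9, 122, 92.7 and 38.3 CPM in naïve libraries, and the log2 fold changes of -1.0 in media (SE 0.34, adjusted p = 0.0207) and -1.05 with lactate (SE 0.35, adjusted p = 0.0148) did not pass the test. Without replicate 4 both passed, at -1.25 (adjusted p = 0.00151) and -1.30 (adjusted p = 0.00101). The differences in media were -1.44 within the low and 0.66 within the high run. Bbc3 had 64.6, 53.3, 63.6 and 35.0 CPM in naïve libraries, with log2 fold changes of 0.17 in media (adjusted p = 0.485) and -0.64 with lactate (SE 0.21, adjusted p = 0.0161), and without replicate 4 the second was -0.80 (adjusted p = 0.00151). Bad, at 9.24 to 12.5 CPM in naïve cells, had log2 fold changes of -0.05 in media (95% interval -0.33 to 0.24) and 0.00 with lactate (-0.28 to 0.29, with a sign that depended on the setting). Without naïve replicate 4, 6 members were called in media and 9 with lactate, where 61.5% and 68.5% of all genes were called in the same fit.

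The genes around the family were read from 7 lists, written from general knowledge, of 68 tested genes in all. These lists were chosen with earlier results of the data known, so their shares of called genes are descriptions. Between lactate and media, 11 were higher and 9 lower, or 29.4% called against 25.1% of all genes, with a median log2 fold change of 0.08. With the donor block, which rests on the 3 donors with both libraries, 25 of the 68 (36.8%) were called. In that fit 27.4% of all genes were called, and of the 68 genes 9 were gained and 4 lost. Of 11 other BCL2 family genes tested, Bmf, a BH3-only gene, was called, and with the donor block Bnip3l, a mitophagy receptor, was called as well (log2 fold change -0.56, adjusted p = 0.00562, against 0.026 without the block). Bmf was at 32.9, 52.4, 28.4 and 41.4 CPM in media. With lactate it was at 14.9, 18.5, 17.8 and 25.6 CPM, without overlap (log2 fold change -1.01, SE 0.23, adjusted p = 0.00376).

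Downstream of the pore, 2 of 13 genes of the apoptosome and caspase list were higher and 3 were lower. Over all genes, 13.9% were called higher and 11.1% lower. Cycs, which encodes the cytochrome c that leaves the mitochondrion, was at 18.3 ± 3.35 CPM (SD, n = 4) in media and 38.2 ± 4.47 CPM in lactate libraries (log2 fold change 1.06, SE 0.15, adjusted p = 0.000211). Htra2, whose protein leaves with it and relieves caspase inhibition, was at 37.4 ± 5.74 and 76.6 ± 5.55 CPM (log2 fold change 1.03, adjusted p = 0.000234). Apaf1, the scaffold of the apoptosome, was lower (log2 fold change -0.54, adjusted p = 0.0012), as was Casp2 (-0.32, adjusted p = 0.00566, but 0.0259 with the donor block). With the donor block the list had 3 genes higher and 2 lower, since Aifm1, whose protein is also released from mitochondria, was then called (0.54, adjusted p = 0.00213, against 0.0104 without the block). Of the 4 caspase inhibitors, Birc2 (log2 fold change -1.41, SE 0.14, adjusted p = 5.97e-05, from 146 to 54.9 CPM) and Xiap (-0.74, SE 0.19, adjusted p = 0.00742, from 125 to 74.7 CPM) were lower, and none was higher.

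**Figure D5:**
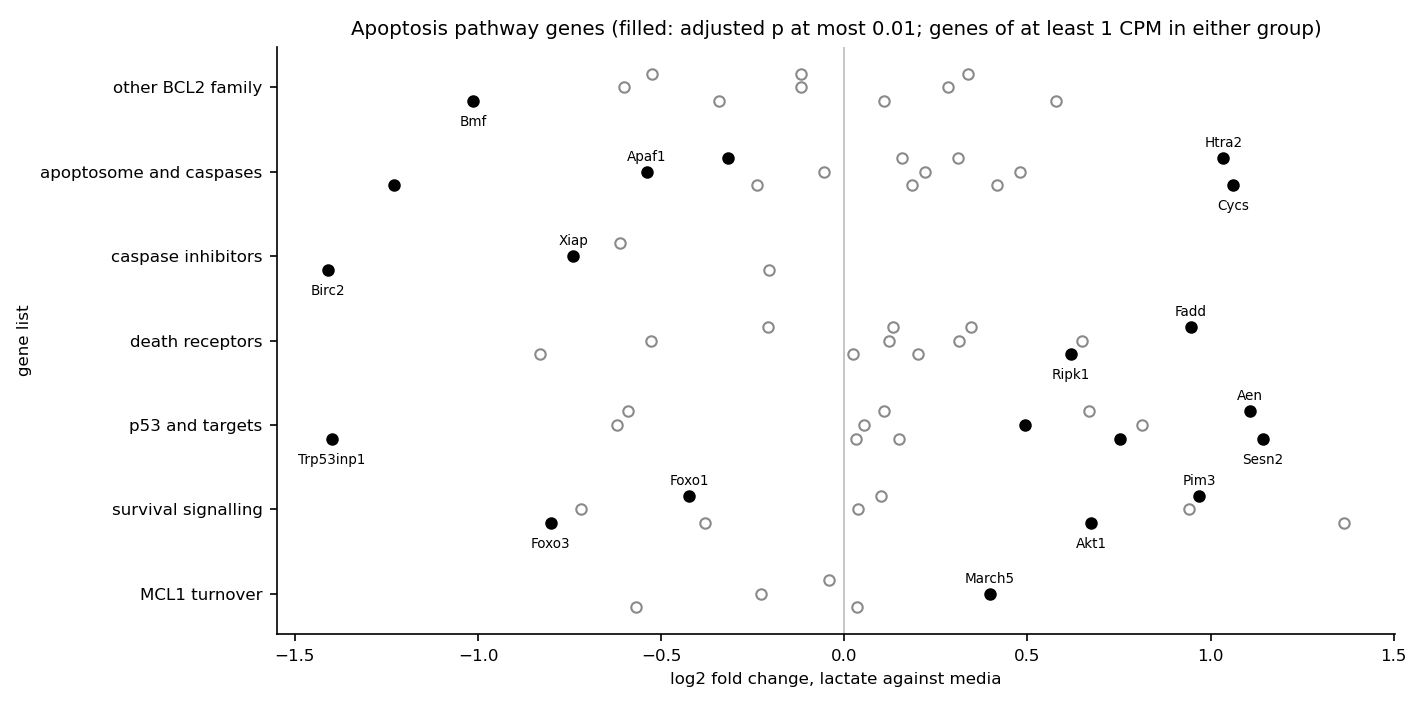
Log2 fold change between lactate and media (horizontal axis) of 67 genes of 7 apoptosis lists (rows), those with at least 1 CPM in either group of the 68 tested. Filled points passed an adjusted p of at most 0.01, and most of the up to 2 largest changes each way are named. Filled points lie on both sides of 0 in 3 of the 7 lists, and both called caspase inhibitors, Birc2 and Xiap, lie below 0.

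Upstream of the family, changes went both ways. Over all genes, 13.9% were called higher, 11.1% lower and 25.1% either way, and 27.4% were called with the donor block. The counts of the short lists below are descriptions beside these shares. Of 13 genes of p53 and its targets, 4 were higher and 1 lower. Trp53 itself was higher (log2 fold change 0.49, adjusted p = 0.00216), with Sesn2 (1.14, adjusted p = 0.00204), Aen (1.11, adjusted p = 0.00033) and Zmat3 (0.75, adjusted p = 0.00347), while Trp53inp1 was lower (-1.40, adjusted p = 0.000618). With the donor block the list had 5 genes higher and 3 lower. The cell cycle inhibitor Cdkn1a (0.81, adjusted p = 0.00262, against 0.0451 without the block) was then also called higher. Perp (-0.82, adjusted p = 0.00184, against 0.0623) and Btg2 (-0.48, adjusted p = 0.00599, against 0.0341) were then called lower. Bax is itself a p53 target that was higher with lactate, and Bbc3 is one that was lower. Of 10 genes of survival signalling, the kinases Pim3 (0.97, adjusted p = 0.000156) and Akt1 (0.67, adjusted p = 0.000128) were higher, and Foxo3 and Foxo1 (-0.42, adjusted p = 0.00647, but 0.0293 with the donor block) were lower. The donor block also called Pim1 (0.89, adjusted p = 0.00185, against 0.0322 without the block) and Sgk1 (1.16, adjusted p = 0.00926, against 0.193) higher in that list. Ddit3 (-0.79, adjusted p = 0.000942, against 0.0158) was then lower there, and Fasl (0.50, adjusted p = 0.0098, against 0.0677) higher among the death receptor genes. Sgk1 separated by run, at 2.51 to 14.1 CPM in activated libraries of the low run and 37.1 to 51.2 CPM in those of the high run. Of 12 death receptor genes, Fadd (0.95, adjusted p = 0.000723) and Ripk1 (0.62, adjusted p = 0.00297, but 0.0101 with the donor block) were higher, and of 5 genes of MCL1 turnover March5 was (0.40, adjusted p = 0.00419, but 0.018 with the donor block).

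In media against naïve cells, 21 of the 68 genes were higher and 15 lower (52.9%, against 57.5% of all genes). Bnip3, a mitophagy receptor with a BH3-like region, was at 3.96 CPM in naïve cells and 201 CPM in media (log2 fold change 5.66, SE 0.22, adjusted p = 2.06e-09), and the survival gene Bcl2l2 went from 5.66 to 33.2 CPM (2.55, SE 0.14, adjusted p = 1.98e-08). Fasl, a death ligand of effector T cells, was at 2.96 CPM in naïve cells, 17.3 CPM in media and 27.2 CPM in lactate libraries, with log2 fold changes from naïve of 2.55 and 3.20. With lactate against naïve cells 24 were higher and 17 lower (60.3%, against 65.0% of all genes). All 4 caspase inhibitors were lower, with Birc6 at -1.50 and Birc3 at -1.22, where 32.0% of all genes were called lower. Birc3 was at 237 CPM in naïve replicate 4 and at 89.5 to 94.3 CPM in the other naïve libraries, and without that library its log2 fold change was -0.74 (adjusted p = 1.88e-05). The 3 Bcl2a1 genes of the table are near-identical copies whose reads can be split between them, and they are left uncertain here.

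Genes whose pattern over the 12 libraries was most like that of a member were ranked by the root mean square difference of log2 CPM. Each gene was centred on its mean, and the ranking ran over the 10313 genes of at least 5 CPM on average, less the member itself. Closest to Bcl2 were Pvt1 (0.18 on the log2 scale), Nubpl (0.19) and Abhd14a (0.21). Closest to Bcl2l1 were Slc43a3 (0.28), Gm13461 (0.34) and Prxl2a (0.34). Closest to Bcl2l11 were Ifngr1 (0.33), the interferon-γ receptor chain, Klhl24 (0.34) and Trp53inp1 (0.35). Ifngr1 had 439 CPM in naïve cells, 328 CPM in media and 122 CPM with lactate on average. The libraries share groups, runs and depth, so a like pattern is a description.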

How the data were processed

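RNA-seq was analysed from 12 libraries of mouse CD8+ T cells, 4 each of naïve, media and lactate. Per the labels and the methods of the study, libraries were made with a stranded mRNA kit, reads were demultiplexed with bcl2fastq 2.20.0.422 and aligned with STAR 2.7.5b to GRCm38, PCR duplicates were removed and uniquely mapped reads were counted in annotated exons with featureCounts. The values deposited by the authors are raw counts per gene, not normalized, with gene lengths. The table had been limited to expressed genes. Whether counting used strand is not given in the sources used here.

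The filter was 1 CPM in at least 3 libraries, which 13767 of 13780 genes passed. Counts were scaled by TMM and fitted in edgeR 4.0.16 (R 4.3.3, limma 3.58.1) with its quasi-likelihood test, 1 term per group and no block, as the methods of the study state none. Tests were two-sided, with Benjamini-Hochberg adjustment over all genes and a limit of 0.01. Standard errors were derived from the fold change and the F statistic. The spread of a gene was fitted over all 12 libraries, so intervals between lactate and media also take in the spread of the naïve libraries. Coordinates and exon overlaps were taken from GENCODE release M21. TPM was computed over the genes of the table with the deposited gene lengths, which for each member equal the union of its annotated exons. Differences within donors and runs are differences of log2 CPM with a prior count of 2. The model was tested on simulated data. Precision is limited by the 4 libraries of a group, with a common biological coefficient of variation of 23.5%, more than by depth.

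Groups and donors came from the labels. Donor tags restart between the runs and were read within each run, which gives the 5 donors that the record states for activated cells. The deviations of same-donor libraries from their group means correlated at 0.374, 0.211 and 0.553 across genes, and the labels give these pairs as the same mouse, so donors pair the samples. The 13 other pairs ran from -0.441 to 0.371, the highest being media replicate 4 with lactate replicate 3 of the same run, so donor and run cannot be told apart in these correlations. Alternatives were DESeq2 1.42.0 as test and as size factors, total counts, other filters, the 2 compared groups alone, blocks by donor and by title number, a term for the run, a limit of 0.05, and leaving out each library.

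The members and gene lists were chosen with earlier results of these data known. Named genes are all members and, from each list and comparison, the called genes of at least 5 CPM with the up to 2 largest changes each way, of which some are given by count, and Casp2, Trp53, Zmat3 and the list genes called with the donor block alone were added after their values were seen. Bcl2l10, Bok, Hrk and Usp13 have no row in the table. Some genes of the lists are counted but not reported here by name. Markers were Cd79a, Cd79b, Ms4a1 and Pax5 for B cells and Lyz2, Csf1r, Itgam, Cd68 and Adgre1 for myeloid cells. Those for red cells were Hba-a1, Hba-a2, Hbb-bt and Alas2.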

Additional observations from a re-analysis of the deposited data

Results flagged for a closer look

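Of the 30 combinations of a member gene and a group of 4 libraries, 4 held a library whose gap to its nearest neighbour, over the range of the group, exceeded Dixon's 95% critical value. Chance gives such a flag in about 1 of 20 groups.

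Bcl2l11 in naïve replicate 4 was at 309 CPM, and the gap took up 0.98 of the range. This library is the only naïve one of the high run. Bcl2l11 in media replicate 2 was at 226 CPM, where the other media libraries had 139.9 to 147 CPM. Without that library the log2 fold change between lactate and media was -1.81.

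Bcl2l1 in naïve replicate 2 was at 56.2 CPM, against 18.5 to 22.9 CPM in the other naïve libraries. Naïve replicate 2 also had the highest sum of red cell markers, 3369 CPM, and whether this bears on Bcl2l1 was not tested. Bad in lactate replicate 4 was at 11.9 CPM, against 10.3 to 10.5 CPM in the other lactate libraries.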

How the results depend on the processing

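The donor replicate block changed no member's call between lactate and media. The title number as a replicate block left 3 members called (Bax, Bid and Bcl2l11), and title pairs correlated at 0.374, 0.297, 0.0038 and 0.553. Leaving out single libraries gave 3 to 5 called members and 13 (without lactate replicate 3) to 28 (without naïve replicate 4) called pathway genes, where all libraries gave 5 and 20, and a limit of 0.05 gave 34 pathway genes. With 1 library fewer, Pmaip1 between lactate and media ran from -0.238 to 0.142 (log2), Bad from -0.00643 to 0.0699 and Bcl2l11 between media and naïve from -0.0819 to 0.806. Bad between lactate and naïve was -0.0938 with DESeq2's size factors, -0.0325 with total counts, -0.048 with at least 10 counts in every library, -0.0517 with the 2 groups alone, -0.0927 in DESeq2, and -0.115 to 0.0215 with 1 library fewer.

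Log2 ratio differences between groups within a run had no test. For Bcl2 to Bcl2l11, the high run gave 3.75 for media and 5.86 for lactate against naïve. Bcl2l1 to Bcl2 was 0.881 for lactate against media and 0.148 for lactate against naïve in the high run, and 0.0433 for media against naïve in the low run. Mcl1 to Pmaip1 was 0.304, 0.11 and 0.414 in the low run for lactate against media and for media and lactate against naïve, and -1.51 and -1.66 in the high run for the last 2 of these. Bax to Bcl2 was 0.6, -2.56 and -1.96 in the high run and 0.0953 for lactate against naïve in the low run. With 1 library fewer, Bcl2l1 to Bcl2 ran from -0.491 to 0.112 (media against naïve) and 0.68 to 1.28 (lactate against naïve), Mcl1 to Pmaip1 from -0.185 to 0.133, -0.486 to 0.0223 and -0.497 to 0.0112 in the order above, and Bax to Bcl2 from -1.47 to -0.74 (media against naïve) and -0.66 to 0.0686 (lactate against naïve). The upper ends of these ratio ranges with naïve cells came without naïve replicate 4. The causes were not tested. Each member had at least 147 counts in every library.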
